A study of Mus musculus with 14 samples.

Results

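The 10 genes described here handle osmotic and mechanical load in cells: *Nfat5*, *Slc5a3*, *Slc6a6*, *Slc6a12*, *Aqp1*, *Aqp3*, *Aqp5*, *Trpv4*, *Piezo1* and *Piezo2*. They were chosen by symbol, with earlier results of these data known, and all 10 were found among the 55487 genes of the count table. RNA came from the caudal intervertebral discs of male mice, with 5 discs pooled per mouse and 1 library per mouse. The db/db mice (n = 3) lack a working leptin receptor, encoded by *Lepr*, and were compared with heterozygous db/+ littermates (n = 3), both at 3 months of age and with no further treatment named. The STZ-HFD mice (n = 4), of the strain C57BL/6J, ate a high-fat diet for 4 to 6 weeks, received 1 injection of 100 mg/kg streptozocin, a toxin of insulin-producing cells, and stayed on the diet for 12 more weeks. Their controls (Con+Veh, n = 4), which the labels call wild type, were C57BL/6J mice on standard chow that received vehicle. STZ-HFD and Con+Veh mice were 12 weeks old at the start. The fat content of the high-fat diet was given as 80% of calories in the labels and as 60% in the study's methods. The mouse is the unit of replication throughout. Age and handling differed between the db and the STZ-HFD cohorts, and strain may have differed too, as none is given here for the db mice. These cannot be told apart. Levels were not tested between the cohorts, and the test of whether a response differed between the models carries the same confounding.

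The disc is a tissue under constant compression whose matrix, rich in charged proteoglycan, draws in water, so its cells live in a surrounding that is saltier than blood and that changes as the disc is loaded and unloaded. Cells adapt to high tonicity mainly through NFAT5, a transcription factor that switches on transporters for small organic solutes such as myo-inositol, taurine and betaine. Aquaporins let water cross the membrane, and the cation channels TRPV4, PIEZO1 and PIEZO2 open on swelling, stretch or indentation and let calcium or other cations in. The question put to the data was whether the transcripts of these genes differed in the discs of either diabetes model.

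Library totals lay between 16076908 and 58943169 counts, of which 28.1% to 60.2% fell on ribosomal RNA genes. The library STZ-HFD 1 stood apart, with the smallest total, a scaling factor of 1.58 against 0.693 to 0.742 in the other STZ-HFD libraries, and a low quality weight of 0.379. Con+Veh 1 had the lowest weight, 0.275. *Lepr* counts were not a check of the genotype, since the db mutation alters the transcript and leaves much of it in place: its level was 6.08 to 9.68 CPM, counts scaled to library size, in db/+ and 4.86 to 7.67 CPM in db/db. The markers of disc and cartilage matrix, led by *Col2a1*, *Acan* and *Comp*, were detected in every group. Their summed level, over 8 of 8 genes, was 13700 to 23800 CPM in db/+, 5600 to 14300 CPM in db/db, 1460 to 3380 CPM in Con+Veh and 649 to 1370 CPM in STZ-HFD. For 12 lists of cell type markers, log2 differences in db/db were -1 to 1.14 with p = 0.1 to 1 (two-sided exact permutation tests over libraries), in a design that cannot go below 0.10. The bone list did not overlap there, at 882 to 1510 CPM in db/+ and 547 to 790 CPM in db/db. Nor did the endothelium list, which was higher in db/db, at 222 to 258 CPM against 151 to 218 CPM in db/+. In STZ-HFD 2 of the 12 differed, this matrix list and the adipocyte list. The other 10 had p = 0.114 to 1 by the same exact test, with log2 differences of -0.81 to 0.84, the highest being skeletal muscle, which was 1.19 (p = 0.0286, exact) without STZ-HFD 1. In whole discs, fewer cells of a type and less RNA per cell cannot be told apart.

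None of the 10 genes passed the test of change in either model. Of the 10, 8 had enough counts to be tested (above 1 CPM in at least 3 libraries), and a gene counted as called with an adjusted p under 0.05 together with a log2 fold change of at least 1 in size (limma with quality weights, Benjamini-Hochberg adjustment over 16915 genes). In db/db, 0 of 8 were called, where 1.66% of all genes tested were. Of the 8, 2 had an unadjusted p under 0.05 beside 21.1% of all genes tested, and 0 did once a trend with GC content was removed. In STZ-HFD, 0 of 8 were called, where 2.61% of all genes tested were. There 3 of 8 had an unadjusted p under 0.05 beside 17.9% of all genes, and 3 did with the GC trend removed. The edgeR quasi-likelihood test also called 0 in both models, while DESeq2 called 0 in db/db and 1, *Trpv4*, in STZ-HFD. Beside backgrounds this low, a count of 0 among 8 genes does not set them apart from other genes. *Trpv4*, the swelling-sensitive calcium channel, came closest. It was lower in both models, by 0.81 on the log2 scale in db/db (standard error 0.28, adjusted p = 0.115) and by 0.91 in STZ-HFD (standard error 0.24, adjusted p = 0.0471, limma), the latter past the p threshold but short of the fold minimum.

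The median log2 fold change of the 8 genes was -0.14 in db/db, with 3 above 0 and 5 below, and -0.44 in STZ-HFD, with 1 above 0 and 7 below. Over all genes tested the medians were -0.04 and -0.04. In db/db, 2 of the 8 (*Slc6a12* and *Trpv4*) had all 3 libraries below all 3 db/+ libraries, where 25.9% of all genes tested had groups that did not overlap in either direction. In STZ-HFD, 1 of the 8 (*Slc6a6*) had no overlap with Con+Veh, where 4.71% of all genes tested had none. Counts of 2 and 1 among 8 genes are too small to read against these backgrounds. No gene's response differed between the models (0 of 8 at an adjusted p under 0.05, limma), where 1.77% of all genes tested did, and 0 of 8 had an unadjusted p under 0.05 for the difference, beside 17.3% of all genes.

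**Figure D1:**
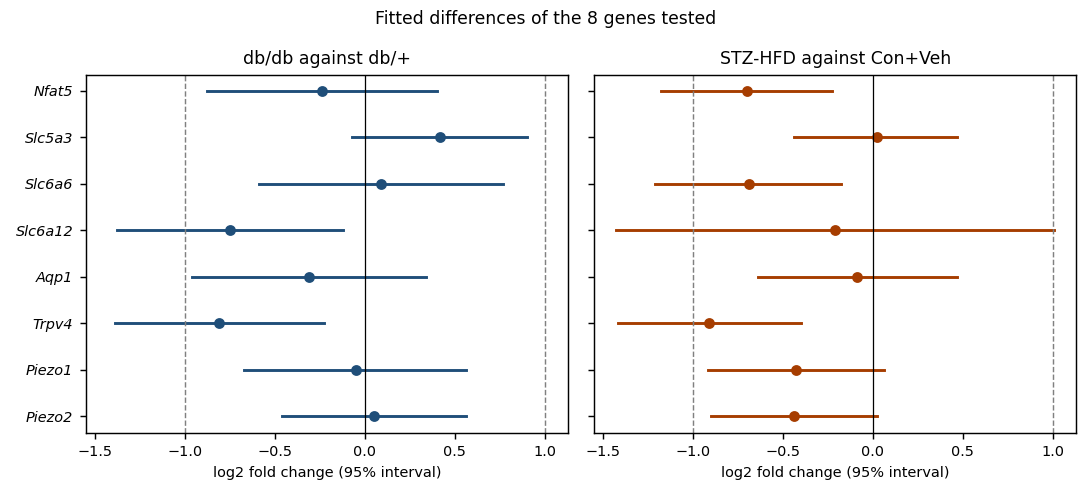
Fitted log2 fold change (x axis, dots) with its 95% interval (lines) for the 8 genes tested, db/db against db/+ on the left and STZ-HFD against Con+Veh on the right. Dashed lines mark the fold minimum of 1 on the log2 scale. The intervals of *Trpv4* and *Slc6a12* in db/db, and of *Trpv4*, *Nfat5* and *Slc6a6* in STZ-HFD, lie below 0, and no dot passes a dashed line.

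Levels of different genes were set side by side only as CPM per kb of exon. On that scale *Slc6a6*, the taurine transporter, was the highest, with a median over the 14 libraries of 40.7 CPM per kb. The water channel *Aqp1* (16.8) and *Nfat5* (16.2) followed, then *Trpv4* (9.36) and *Piezo1* (8.09). *Slc5a3* (1.96), *Piezo2* (1.75) and *Slc6a12* (0.8) were low, and *Aqp5* (0.011) and *Aqp3* (0.00392) were near 0. Of the 3 aquaporins, *Aqp1* alone was at a level that could be compared, and *Piezo1* was above *Piezo2* on the length-scaled level.

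**Figure D2:**
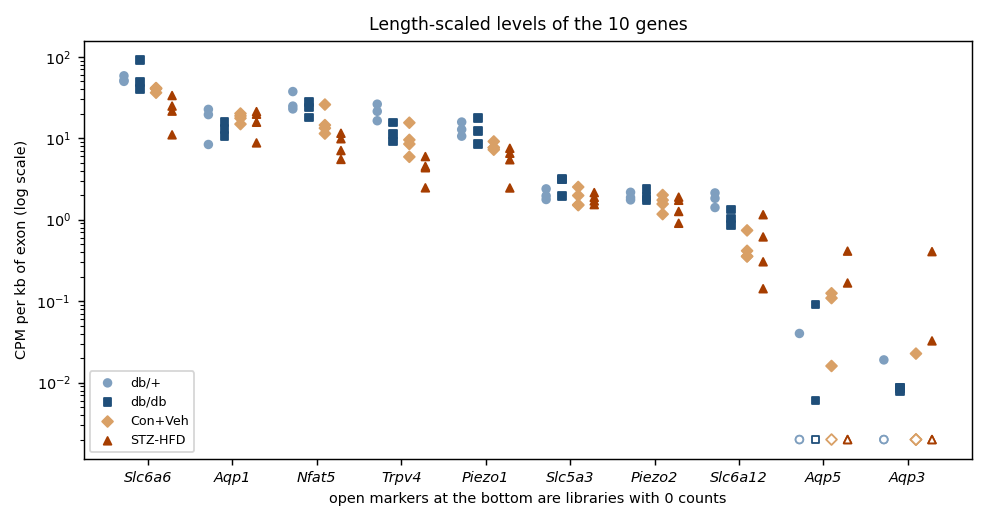
Length-scaled level (CPM per kb of exon, log axis) of the 10 genes in each of the 14 libraries, ordered by their median over all libraries, with colour and shape for the group. *Slc6a6* leads at a median of 40.7 and *Aqp3* is last at 0.00392. Open markers at the bottom stand for libraries with 0 counts and have no place on the log axis.

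The sequences before the start sites of 3 of the genes are shown because *Slc6a12* is a textbook target of NFAT5 and because *Trpv4* and *Nfat5* had 2 of the 3 STZ-HFD intervals below 0. They are the 250 bases before the start that RefSeq annotates on GRCm38.p6, in the direction of the gene. Capitals mark any match, on either strand, to TGGAAA, the core of the tonicity-responsive element that NFAT5 binds, or to GGGCGG, the GC box. RefSeq windows were found for 8 of the 10 genes, with 5 alternative starts for *Slc6a12*. The first *Slc6a12* start, at chr6:121342324-121342573 on the plus strand, held the lone TGGAAA match among the windows examined, at position -75 counted from the start. It lies upstream of the gene start at 121343076 given below. The window directly before that gene start, chr6:121342826-121343075, held 0 TGGAAA matches.
Slc6a12: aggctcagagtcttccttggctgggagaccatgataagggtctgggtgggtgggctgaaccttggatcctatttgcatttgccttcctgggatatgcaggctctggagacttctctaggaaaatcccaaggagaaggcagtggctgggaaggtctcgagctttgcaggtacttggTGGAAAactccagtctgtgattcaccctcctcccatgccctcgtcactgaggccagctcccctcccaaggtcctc
Nfat5: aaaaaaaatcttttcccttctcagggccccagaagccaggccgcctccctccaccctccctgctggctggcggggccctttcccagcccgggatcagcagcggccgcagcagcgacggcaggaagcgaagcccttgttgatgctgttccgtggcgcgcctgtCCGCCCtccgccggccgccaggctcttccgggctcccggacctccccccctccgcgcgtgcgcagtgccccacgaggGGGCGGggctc
Trpv4: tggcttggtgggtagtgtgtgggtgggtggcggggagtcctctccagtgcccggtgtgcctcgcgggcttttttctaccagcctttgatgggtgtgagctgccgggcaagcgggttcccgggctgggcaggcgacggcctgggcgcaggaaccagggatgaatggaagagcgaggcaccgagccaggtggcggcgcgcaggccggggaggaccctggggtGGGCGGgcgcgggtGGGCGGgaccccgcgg
The *Nfat5* window is chr8:107293220-107293469 on the plus strand and the *Trpv4* window is chr5:114658422-114658671 on the minus strand. TGGAAA was found in 1 of the 12 windows examined for these genes and in 18.6% of the 32851 RefSeq windows of this length. GGGCGG was found in 7 of the 12 windows examined, none of them of *Slc6a12*, and in 32.7% of all windows. The *Nfat5* and *Trpv4* windows held 2 GC boxes each and were 71.6% and 72.0% G or C, against 55.6% for *Slc6a12*. A match is a run of letters and not a shown binding site.

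*Nfat5*, the transcription factor of the tonicity response (ENSMUSG00000003847, chromosome 8, 107293470 to 107379517 of GRCm38, plus strand), was present at 456, 420 and 687 CPM in the db/+ libraries and at 331, 510 and 440 CPM in db/db. These ranges overlapped, and the log2 fold change was -0.24 (95% interval -0.88 to 0.40, adjusted p = 0.696, limma). In Con+Veh it was 475, 209, 266 and 245 CPM, and in STZ-HFD it was 100.9, 181, 130 and 212 CPM. Only the highest STZ-HFD library reached the lowest Con+Veh library, and the fitted log2 difference was -0.70 (SE 0.23, 95% interval -1.18 to -0.23, adjusted p = 0.097, limma), which was not called. Leaving out any 1 library kept it between -0.90 and -0.56, with adjusted p from 0.0906 to 0.53 (limma). Most of its estimated transcript counts fell on the coding transcript *Nfat5*-211, whose median share was 72.8% in db/+, 75.8% in db/db, 78.6% in Con+Veh and 74.2% in STZ-HFD.

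None of the 3 solute transporters was called in either model. *Slc6a6*, which carries taurine (ENSMUSG00000030096, chromosome 6, 91684053 to 91759066, plus strand), was at 422, 494 and 435 CPM in db/+ and at 341, 413 and 778 CPM in db/db, where 1 library was far above the other two (log2 fold change 0.09, 95% interval -0.59 to 0.77, adjusted p = 0.904, limma). In Con+Veh its 4 libraries were close together, at 306, 349, 341 and 347 CPM. All 4 STZ-HFD libraries were lower, at 93, 182, 210 and 283 CPM, and the fitted difference was -0.69 on the log2 scale (standard error 0.24, 95% interval -1.21 to -0.18, adjusted p = 0.131, limma). The difference between the models was -0.78 on the log2 scale and did not pass (unadjusted p above 0.05).

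*Slc5a3*, the sodium and myo-inositol cotransporter (ENSMUSG00000089774, chromosome 16, 92058322 to 92087473, plus strand), was at 26.1, 19.3 and 21.4 CPM in db/+ and at 34, 34.7 and 21.4 CPM in db/db. One db/db library lay within the control range and the other two above it, and the log2 fold change was 0.42 (95% interval -0.07 to 0.90, adjusted p = 0.306, limma). In Con+Veh it was 27.5, 16.4, 16.6 and 21.6 CPM against 20.6, 23.4, 18.6 and 16.7 CPM in STZ-HFD, a log2 fold change of 0.02 (95% interval -0.44 to 0.47, adjusted p = 0.983, limma). The interval leaves room for a change of under the fold minimum in either direction. *Slc5a3* shares 159 exonic bases with *Mrps6*, a mitochondrial ribosomal protein gene on the same strand, and 159 with *Gm49711*, also on that strand. At most 2.9% of its exonic length could therefore not be assigned to it alone, and less if those bases coincide. *Mrps6* was at 11.7 to 17.9 CPM in db/+ and 27.2 to 31.4 CPM in db/db.

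*Slc6a12*, which carries betaine and GABA (ENSMUSG00000030109, chromosome 6, 121343076 to 121365775, plus strand), was the lowest of the transporters. It was at 4.31, 5.6 and 6.5 CPM in db/+ and at 4.09, 2.63 and 3.14 CPM in db/db. The groups did not overlap, by a narrow gap, and the log2 fold change was -0.75 (standard error 0.30, 95% interval -1.38 to -0.12, adjusted p = 0.164, limma). In Con+Veh it was 2.26, 1.27, 1.08 and 1.09 CPM and in STZ-HFD 3.49, 0.928, 0.435 and 1.87 CPM, from 14 to 85 reads per library. The STZ-HFD libraries spread to both sides of the controls, and the interval of the difference ran from -1.43 to 1.01 on the log2 scale, which reaches past the fold minimum on both sides. The most reads, 85, were in STZ-HFD 1, the library with the smallest total. In the estimated transcript counts, 79.4% to 96.4% of the *Slc6a12* total in db/+ and 47.9% to 59.2% in db/db fell on *Slc6a12*-207, annotated as a retained intron and not as coding. This transcript had a mean of only 32.9 estimated counts in db/+ and 22.4 in db/db, so the shares are uncertain. On the estimated counts summed over transcripts, also few, the db/db difference was 0.14, of the other sign.

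Of the aquaporins, *Aqp1*, the main water channel of many cell types (ENSMUSG00000004655, chromosome 6, 55336432 to 55348555, plus strand), was at 59.3, 51.3 and 22 CPM in db/+ and 41.8, 27.9 and 33.9 CPM in db/db. It was at 52.8, 39, 49.3 and 46.3 CPM in Con+Veh and 23, 55.6, 51.9 and 41.4 CPM in STZ-HFD. The groups overlapped in both models, with log2 fold changes of -0.31 (95% interval -0.96 to 0.34, adjusted p = 0.594) and -0.09 (95% interval -0.64 to 0.47, adjusted p = 0.901, limma). Without STZ-HFD 1, the lowest library, the latter was 0.03.

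*Aqp3*, which passes water and glycerol (ENSMUSG00000028435, chromosome 4), and *Aqp5*, a water channel of secretory epithelia (ENSMUSG00000044217, chromosome 15), were too low to test. *Aqp3* had 0 to 2 counts in 13 libraries and 18 in STZ-HFD 1. *Aqp5* had 0, 6 and 0 counts in db/+, 1, 0 and 15 in db/db, 0, 2, 6 and 6 in Con+Veh and 26, 0, 14 and 0 in STZ-HFD. The highest library for both was STZ-HFD 1, the one in which 42626 genes had at least 1 count, against 25194 to 29924 in the others. Whether that breadth accounts for its *Aqp3* and *Aqp5* reads was not tested. A count of 0 allows up to 3 reads, a floor that covers counting error only.

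*Trpv4* (ENSMUSG00000014158, chromosome 5, 114622152 to 114658421, minus strand) was at 87.1, 66.8 and 107 CPM in db/+ and at 37.3, 45.5 and 63.4 CPM in db/db. All 3 db/db libraries lay below all 3 db/+ libraries, a mean of 48.7 ± 13.3 against 86.9 ± 20.0 CPM (SD, n = 3 each). In Con+Veh it was 63, 24.1, 34.6 and 38.9 CPM, and in STZ-HFD 10, 18.4, 17.7 and 24.3 CPM. The highest STZ-HFD library just overlapped the lowest Con+Veh library, and the means were 17.6 ± 5.84 and 40.2 ± 16.5 CPM (SD, n = 4 each). The 95% interval of the log2 fold change was -1.39 to -0.23 in db/db and -1.42 to -0.40 in STZ-HFD. The difference between the models was -0.10 on the log2 scale.

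The sign of the *Trpv4* difference was the same under all 27 alternative settings in each model, but the STZ-HFD adjusted p was under 0.05 in 7 of them, with a range of 0.0278 to 0.408. It was above 0.05 without db/+ 1 (0.0599), db/db 2 (0.0566), Con+Veh 3 (0.337), Con+Veh 4 (0.241), STZ-HFD 1 (0.0568), STZ-HFD 2 (0.077), STZ-HFD 3 (0.308) or STZ-HFD 4 (0.0712, limma), and in 12 of the 13 settings that left out no single library, DESeq2 (0.0297) being the exception. Among these 12 were the edgeR quasi-likelihood test (0.164), voom without quality weights (0.184), the replicate block (0.201), no filter (0.21) and transcript count totals (0.408). In db/db the log2 difference moved from -0.81 to -0.38 once a trend of fold change with GC content was removed. Across the genes tested, log2 fold change and GC content had a Spearman correlation of -0.428 in db/db and -0.0807 in STZ-HFD, as a description over 16899 genes that are not independent, and the longest *Trpv4* transcript is 59% G or C. The summed disc and cartilage matrix markers moved with *Trpv4* in STZ-HFD, with a log2 difference of -1.38 (two-sided exact permutation test, p = 0.0286, n = 4 each, the smallest possible being 0.029). In db/db they were lower by 0.92 on the log2 scale (p = 0.2, exact permutation test, n = 3 each, smallest possible 0.10). Their part in the *Trpv4* values was not tested.

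**Figure D3:**
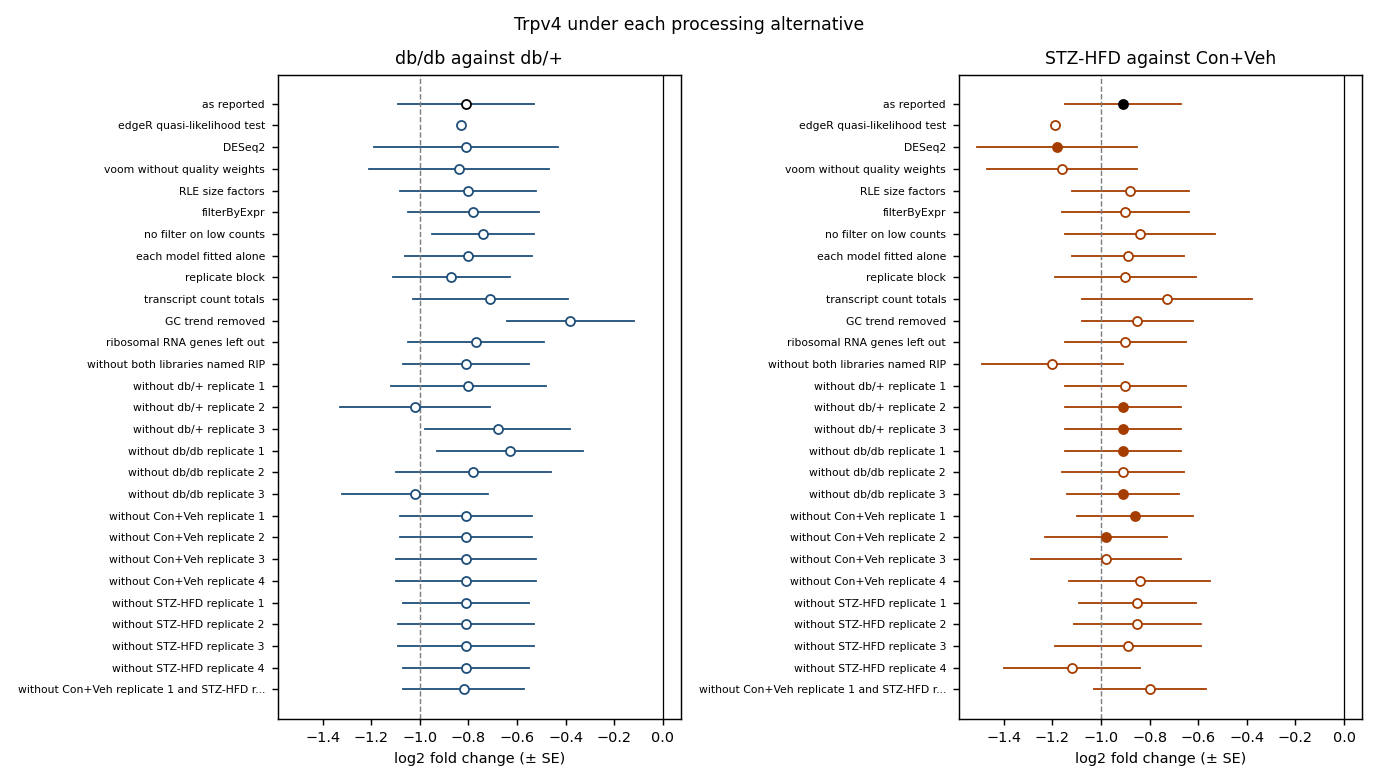
Log2 fold change of *Trpv4* (x axis, ± standard error where the method gives one) as reported and under each of 27 alternatives, in db/db on the left and STZ-HFD on the right. Filled dots have an adjusted p under 0.05 and the dashed line marks the fold minimum. All dots lie below 0, and the filled ones are found on the right alone, where the adjusted p ran from 0.0278 to 0.408.

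*Piezo1*, a stretch-activated channel (ENSMUSG00000014444, chromosome 8, 122481698 to 122551329, minus strand), was at 105, 127 and 157 CPM in db/+ and at 84.3, 122 and 175 CPM in db/db. The db/db range enclosed the control range, and the log2 fold change was -0.05 (95% interval -0.67 to 0.56, adjusted p = 0.938, limma). In Con+Veh it was 90.7, 71.8, 76.4 and 76 CPM and in STZ-HFD 24.3, 74.8, 65 and 54 CPM. Of the STZ-HFD libraries 3 were below every control and 1 was within their range, for a log2 fold change of -0.43 (95% interval -0.92 to 0.06, adjusted p = 0.348, limma). *Ctu2*, on the opposite strand, overlaps 24.6% of the *Piezo1* exonic bases, and without a stated strand setting the reads of that stretch cannot be told apart. *Ctu2* itself was at 0.44 to 2.13 CPM over all groups.

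*Piezo2*, the channel of touch and proprioception (ENSMUSG00000041482, chromosome 18, 63010213 to 63387183, minus strand), was at 30, 37.3 and 32.1 CPM in db/+ and 32.7, 30.2 and 41.1 CPM in db/db (log2 fold change 0.05, 95% interval -0.46 to 0.56, adjusted p = 0.93, limma). It was at 29.8, 20.1, 26.7 and 34.5 CPM in Con+Veh and 32.5, 29.6, 15.5 and 21.7 CPM in STZ-HFD (log2 fold change -0.44, 95% interval -0.90 to 0.02, adjusted p = 0.302, limma). The groups overlapped in both models, and the STZ-HFD and Con+Veh means were 24.8 ± 7.73 and 27.8 ± 6.06 CPM (SD, n = 4 each). The STZ-HFD value fell in size to -0.16 without STZ-HFD 3 and to -0.29 without Con+Veh 4, and was -0.14 with DESeq2 and -0.16 with edgeR. Fitted in STZ-HFD, 7 of the 8 genes had values below 0, *Slc5a3* being the exception, while 1 of the 8, *Trpv4*, had an adjusted p under 0.05 at any fold, beside 3.45% of all genes tested (limma).

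**Figure D4:**
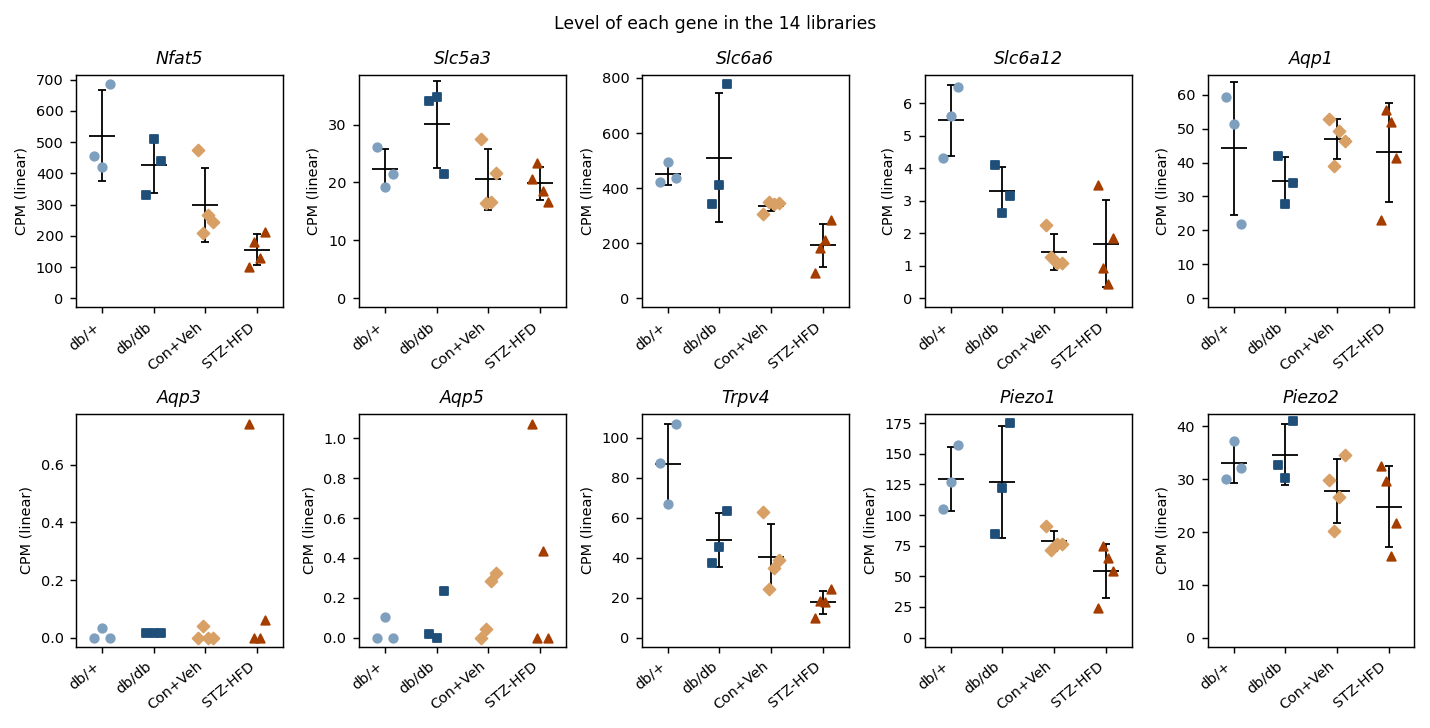
Level of each of the 10 genes (CPM, linear axes that differ between panels) in every library, by group, with the mean and SD as a bar and whiskers for the 8 genes tested. All db/db points of *Trpv4* and *Slc6a12* lie under the db/+ points, all STZ-HFD points of *Slc6a6* lie under the Con+Veh points, and *Aqp3* and *Aqp5* are highest in STZ-HFD 1, at 0.74 and 1.07 CPM.

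Levels also differed between the control groups of the cohorts, as a description with no test. The mean db/+ level was 3.84 times the Con+Veh mean for *Slc6a12*, 2.17 times for *Trpv4*, 1.65 times for *Piezo1* and 1.34 times for *Slc6a6*, with no overlap of the control libraries. For *Nfat5* (1.74 times), *Slc5a3* (1.08 times), *Piezo2* (1.19 times) and *Aqp1* (0.943 times) the control libraries overlapped. The group means of *Nfat5*, *Trpv4* and *Piezo1* were highest in db/+, then db/db, then Con+Veh, and lowest in STZ-HFD, where neighbouring groups overlapped except db/+ and db/db for *Trpv4*. For *Slc6a6* the mean was highest in db/db, followed by db/+, then Con+Veh and last STZ-HFD. Of neighbouring groups in this order, db/db and db/+ alone overlapped. The lowest db/db library, at 341 CPM, also lay within the Con+Veh range of 306 to 349 CPM.

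In 5 lists of related genes, 57 of 68 genes were tested, of which 1 was called in db/db, *Hspa1a*, and 0 in STZ-HFD (limma), beside backgrounds of 1.66% and 2.61%, counts that do not set the lists apart from other genes. *Hspa1a*, an inducible heat shock protein that tonicity also raises, rose in db/db from 6.25 ± 1.01 to 13.9 ± 2.57 CPM (SD, n = 3 each), or by 1.17 on the log2 scale (SE 0.27, adjusted p = 0.0376 in limma). Its reads are uncertain because *Hspa1b* is a near-identical copy, which had a log2 fold change of 0.18 (adjusted p = 0.811, limma). *Hspa1a* was not called when any 1 of the 6 db libraries was left out, nor by edgeR or DESeq2. The other tonicity-responsive genes included the amino acid transporter *Slc38a2*, at 0.42 and 0.25, and *Slc3a2*, the heavy chain of a heteromeric amino acid transporter, at -0.16 and -0.25 on the log2 scale in db/db and STZ-HFD. *Slc7a5* was at -1.15 in STZ-HFD (adjusted p = 0.321) and *Pnpla6* at -0.63 in db/db (adjusted p = 0.134, limma). The list's median was -0.16 in db/db and -0.14 in STZ-HFD over 11 genes.

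Among 15 tested genes of cell volume regulation, the median was -0.10 in db/db and -0.25 in STZ-HFD, and 0 were called. In db/db, 2 of them lay wholly above and 3 wholly below the db/+ libraries, where 25.9% of all genes tested did not overlap. These counts are too small to read against that share. *Slc12a4*, a potassium and chloride cotransporter that lets swollen cells shrink, was at -1.11 in db/db (adjusted p = 0.0651), with all 3 libraries below the controls. The volume-regulated anion channel subunit *Lrrc8c* was at 0.95 there (adjusted p = 0.0732), with all 3 above. In STZ-HFD its relative *Lrrc8d* was at -0.83 (adjusted p = 0.0331, limma), past the p threshold but under the fold minimum, and *Slc12a7* was at -0.80 (adjusted p = 0.0676). The obligatory subunit *Lrrc8a* and the kinase *Wnk1*, the genes of the list with the highest length-scaled levels, had adjusted p of 0.581 and 0.46 in db/db and 0.726 and 0.735 in STZ-HFD (limma).

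Of 9 other aquaporins 4 were tested and 0 were called. *Aqp7*, the glycerol channel of adipocytes, was at 1.26 in STZ-HFD (standard error 0.36, adjusted p = 0.0648, limma) and 0.63 in db/db (adjusted p = 0.326). The summed adipocyte markers, 7 of 7 genes led by *Cfd*, *Plin4* and *Fabp4*, moved the same way in STZ-HFD, from 420 to 918 CPM in Con+Veh to 933 to 1060 CPM, with no overlap (log2 difference 0.79, exact permutation test, p = 0.0286, n = 4 each). No adipocyte marker was at 0 in every library, and their part in the *Aqp7* value was not tested. *Aqp4* (2.74, standard error 1.03) and *Aqp8* (-1.69, standard error 1.56) were imprecise in STZ-HFD.

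Among 15 tested mechanically gated or osmosensitive channels, 0 were called and the median was -0.16 for db/db and -0.15 for STZ-HFD. *Pkd1*, the polycystin with the highest length-scaled level of the list, was at -0.83 in db/db (adjusted p = 0.106) and *Trpm4* at -0.98 (adjusted p = 0.0807, limma). *Tmem63a*, an osmosensitive channel, was at -0.19 and -0.15 in the models. *Tmc1* and *Tmem63c* had the largest STZ-HFD values, -3.83 and 0.78, with standard errors of 2.35 and 0.73. Among 12 genes of the YAP and TAZ pathway, the medians were 0.02 and -0.11 and 0 were called. *Wwtr1*, which encodes TAZ and is named after its values were seen, was at -0.85 in STZ-HFD (SE 0.20, adjusted p = 0.0276 in limma), the one gene of the list past the p threshold and under the fold minimum. *Tead4*, a DNA-binding partner of YAP, was at -2.13 in STZ-HFD (standard error 0.61, adjusted p = 0.063, limma). Its groups overlapped, at 3.56 to 67.5 CPM in Con+Veh and 4.28 to 15.2 CPM in STZ-HFD. The target *Ankrd1* was at 0.85 in STZ-HFD with no overlap (adjusted p = 0.0932, limma), where 4.71% of all genes tested had none. The target *Ccn1* was at 0.25 and 0.05, *Tead1* at -0.09 and 0.66, and *Amotl2* at 0.54 and -0.19 in db/db and STZ-HFD.

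For the 5 tested members whose level ranged over more than 2 log2 units, the genes with the most similar pattern were found as the smallest root mean square difference in centred log2 CPM over the 14 libraries. For *Nfat5* they were *Nfatc1* (0.22), *Cdr2l* (0.23) and *Muc1* (0.24). For *Slc6a6* they were *Gltp* (0.17), *Smad4* (0.20) and *Actb* (0.21). *Muc1* was near *Trpv4* too (0.29), beside *1810055G02Rik* (0.27) and *Fgfr1* (0.30). For *Piezo1* they were *Dusp7* (0.21), *Csk* (0.21) and *Mn1* (0.23), while *Slc6a12* had no gene closer than *4930447C04Rik* at 0.47, then *Eef1akmt3* (0.48) and *Fendrr* (0.51). The libraries differ in depth and cohort, so these distances are a description.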

How the data were processed

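Bulk RNA-seq was deposited for 14 libraries of mouse disc RNA, made with a whole-transcriptome amplification kit. Per the labels and the study's methods, the authors aligned reads with STAR to an Ensembl assembly (GRCm38) and deposited raw counts per gene from featureCounts and expected counts per transcript from Salmon. The strand setting is not given in the sources used here. The 287 table lines that repeated a gene identifier were merged, leaving 55487 genes. Gene counts were scaled by TMM (edgeR 4.0.16), filtered at CPM above 1 in at least 3 libraries and fitted with voomWithQualityWeights in limma 3.58.1 (R 4.3.3), all 14 libraries in one model. CPM values are TMM-scaled. Estimated transcript counts, summed per gene and rounded, served as an alternative, as did DESeq2 1.42.0 and the edgeR quasi-likelihood test, and transcript shares are descriptive. Marker lists were compared by exact permutation tests. Gene positions and exonic lengths came from GENCODE M21 (GRCm38), and promoter sequences from RefSeq. Scripts were tested on simulated data. Genes of the lists were named by a fixed rule: those called, the 2 with the highest length-scaled level, and the 2 with the largest change per model. The members and lists were chosen with earlier results of these data known. Replicates are separate mice, and their counts differed by 47.2 to 499 chi-square per degree of freedom over 18 pairs, so none was a duplicate.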

Additional observations from a re-analysis of the deposited data

Results flagged for a closer look

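Each of the 10 genes was examined for a library far from the others in both groups of 4, which made 20 tests, of which chance marks about 1 in 20. In 3 of them a library lay far from the rest. *Slc6a12* was at 2.26 CPM in Con+Veh 1, above 1.08 to 1.27 CPM in the other controls. *Aqp3* was at 0.0416 CPM in Con+Veh 2, which is 2 reads beside 0 in the other controls and under the floor of 3 reads. *Aqp3* was at 0.74 CPM in STZ-HFD 1, which is 18 reads beside 0 to 2 in the other STZ-HFD libraries.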

How the results depend on the processing

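The alternatives covered other tools, scaling, filters, GC content, ribosomal RNA genes and left-out libraries. Members called stayed at 0 in db/db under every alternative. In STZ-HFD they were 1 (*Trpv4*) with DESeq2 and 1 with no fold minimum, and 0 under the others, including without Con+Veh 1 and STZ-HFD 1 together, which was added after seeing the data. Pathway genes called in db/db numbered 0 with the edgeR quasi-likelihood test, DESeq2 or voom without quality weights, 2 with each model fitted alone or without both libraries whose names end in RIP, and 0 to 2 with 1 library left out. In STZ-HFD they were 1 without the RIP libraries, 2 with no fold minimum, and 0 to 2 with 1 library left out. Over the whole table the calls also moved, from 281 to 0 in db/db and from 441 to 29 in STZ-HFD with edgeR, to 207 and 255 with DESeq2, to 9 and 19 without quality weights, to 534 and 130 with no filter, and to 144 and 56 on transcript count totals. Without 1 library they fell as low as 21 (without db/+ 2) and 17 (without Con+Veh 3). The causes were not tested.

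The replicate numbers of different mice did not pair them: same-numbered libraries deviated together with r of -0.25 to 0.175 in the db cohort and -0.23 to -0.0545 in the STZ-HFD cohort. With the replicate number as a block, members called stayed at 0 in both models, pathway genes called in db/db were 2, the whole table had 618 calls for db/db and 38 for STZ-HFD, and *Slc5a3* in STZ-HFD was -0.03.

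Some log2 values that were called in no fit, most of them near 0, changed sign under some settings. *Slc5a3* in STZ-HFD was -0.05 with edgeR, -0.04 with DESeq2, -0.04 without quality weights, and -0.17 to 0.15 with 1 library left out. *Slc6a12* in STZ-HFD was 0.22 with edgeR, 0.24 with DESeq2 and -0.65 to 0.50 with 1 left out. On transcript count totals, *Slc6a12* was 0.14 in db/db and -1.94 in the difference of the models. As reported these were -0.75 and 0.54, which are not near 0. On the same totals *Piezo1* in db/db was 0.13. *Piezo1* in db/db was 0.38 with the GC trend removed and -0.32 to 0.21 with 1 left out. *Aqp1* in STZ-HFD was 0.04 with no filter, 0.02 without Con+Veh 1 and STZ-HFD 1 together and -0.22 to 0.03 with 1 left out, in db/db -0.70 to 0.03 with 1 left out, and in the difference of the models -0.02 with the GC trend removed and -0.11 to 0.62 with 1 left out. With 1 left out, *Piezo2* in db/db was -0.08 to 0.15, *Slc6a6* in db/db -0.27 to 0.33, and the *Trpv4* difference of the models -0.31 to 0.11, or 0.02 without Con+Veh 1 and STZ-HFD 1 together.

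Marker lists that did not pass their test changed sign as well. As a mean of log2 levels, annulus fibrosus and tendon in db/db was 0.23, endothelium in STZ-HFD 0.04 and epidermis in STZ-HFD 0.06. With 1 library left out, Schwann cells and nerve ran from -0.24 to 0.77 in STZ-HFD and -0.99 to 0.22 in db/db, epidermis from -0.59 to 0.15, neutrophils from -1.08 to 0.13 and nucleus pulposus from -0.61 to 0.36 in STZ-HFD, and macrophages from -0.06 to 0.39 and red blood cells from -0.13 to 0.34 in db/db. *Slc6a12* had 85 reads or fewer per library in the STZ-HFD cohort, and *Aqp3* and *Aqp5* 26 or fewer in any library.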

Other observations

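The estimated transcript counts of *Trpv4* gave a pattern that its gene counts could not, and it was picked out after the values were seen, so it has no test. The coding transcript *Trpv4*-201 took 33.8%, 42.8% and 11.3% of the gene's estimated counts in the db/db libraries, against 0.0%, 0.0% and 10.1% in db/+. The coding transcript *Trpv4*-205 had a median share of 52.0% in db/+ and 0.0% in db/db, where it reached 44% in 1 library. *Trpv4*-201 was at 0.0% in all 4 STZ-HFD libraries and in 3 of 4 Con+Veh libraries, with 31.1% in Con+Veh 1, and *Trpv4*-205 had a median share of 46.0% against 56.4% in Con+Veh. The gene totals behind these shares were 663 to 2078 estimated counts in the db cohort, 150 to 579 in Con+Veh and 33 to 229 in STZ-HFD, and shares between similar transcripts are uncertain.

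*Piezo1* also divided between transcripts, with a median of 52.1% in db/db and 36.8% in db/+ on *Piezo1*-206, annotated for nonsense-mediated decay, with overlapping ranges of 28.4% to 52.4% and 12.5% to 40.4%. In the STZ-HFD cohort its median share was 7.6% in STZ-HFD and 20.4% in Con+Veh.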
